A study of Mus musculus with 10 samples.

Results

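The genes described here encode the subunits of oxidative phosphorylation. They were chosen by symbol in the array annotation, leaving out pseudogenes. For complex I the symbol was Nduf followed by a, b, c, s or v and a digit, which leaves out Ndufaf assembly factors. For the others it was Sdha to Sdhd (complex II), Uqcr (complex III), Cox4 to Cox8 (complex IV) and Atp5 (complex V). The rule gave 78 of the 22180 genes with a probe set of 1 symbol, of which 33 belong to complex I, 4 to complex II, 7 to complex III, 17 to complex IV and 17 to complex V. The rule itself uses no measured value, but this set of genes was chosen with earlier results of these data known. A gene with several probe sets, as 9 members have, was read from the brightest.

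The RNA came from the plantaris, a hindlimb muscle, of male C57BL/6 mice, and carried no label for a transgene or deletion. Muscles were overloaded by synergist ablation, the removal of the muscles that share the work of the plantaris, and were sampled after 3 or 10 d, with or without a drug against signalling by platelet-derived growth factor (PDGF). The inhibitor is not named in the sources used here. The 5 groups were no overload without inhibitor, 3 d overload, 3 d overload with inhibitor, 10 d overload and 10 d overload with inhibitor. There was no group given the inhibitor without overload. Each group had 2 arrays, and each array held equal amounts of RNA from 4 muscles. The pools are numbered here only to tell them apart. Whether the pools of 1 group stem from separate animals is not stated, so the p-values measure the spread between pools, which may be technical.

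The subunits sit in the inner mitochondrial membrane. Complexes I and II pass electrons from NADH and succinate to ubiquinone, complex III passes them on to cytochrome c, and complex IV (cytochrome c oxidase) gives them to oxygen. Complexes I, III and IV pump protons as they do so, and complex V, the ATP synthase, makes ATP as the protons flow back. Nuclear genes encode most subunits, the mitochondrial genome encodes a few core ones, and several complex IV subunits have a heart and skeletal muscle isoform beside one found in most tissues.

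All values are log2 array signals on the authors' scale, where a difference of 1 is a doubling. Over all probe sets the medians of the 10 arrays lay between 2.40 and 2.45. Over the 22180 genes they lay lowest in the pools without overload, at 2.99 and 3.00, and between 3.07 and 3.22 in the overloaded pools. Setting these medians equal was tried as an alternative, and its effect is given for some of the calls it changes. Pools of a group correlated at 0.989 to 0.992 across genes. The number of arrays limits the precision. A gene is said to have risen or fallen where limma's test, fitted over all 10 arrays and adjusted over all genes (Benjamini-Hochberg), gave an adjusted p under 0.05. Errors are the standard errors (SE) of that fit, with n = 2 pools a group. A level is not compared between genes, because each probe set has its own brightness.

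After 3 d of overload most subunit genes were lower than in muscle without overload, in every complex. Of the 78 members, 48 fell and 1 rose, while 17.5% of all genes passed in either direction, 9.31% higher and 8.18% lower. An unadjusted p under 0.05 was found in 66 members and 29.3% of all genes. The median change over the members was -0.59, against -0.04 over all genes, with 71 members and 55% of all genes below 0. Both overloaded pools lay below both pools without overload in 66 members, an order that 30.7% of all genes showed. The median member stood at -0.55 in pool 1 and -0.66 in pool 2 relative to the mean without overload, and 72 and 69 members were below that mean. In whole muscle, fewer cells of a type and less RNA per cell cannot be told apart. Other cell types moved at the same time: all 12 macrophage markers rose, by a median of 3.04, and their mean level was 4.31 to 4.58 without overload and 7.44 to 7.75 at 3 d. All 7 markers of dividing cells rose too, by a median of 3.53, with mean levels of 2.27 to 2.43 without overload and 5.55 to 5.90 at 3 d. Of 9 fibroblast markers 6 rose, with mean levels of 6.84 to 7.03 and 8.54 to 8.62. Dcn of that list went the other way, at -0.16, lower without overlap. The 12 markers of any muscle fibre had a median change of -0.29. Of these, 5 fell (Myoz1, Pygm, Tcap, Eno3 and Mb) and 0 rose. In 3 of the 12 the change was above 0, up to 0.26 for Mylpf, and 2 were higher without overlap. The list's mean level was 11.52 to 11.55 without overload and 11.24 to 11.27 at 3 d. Of 10 fast fibre markers 3 fell and 0 rose (median -0.30), and 2 had a change above 0. The slow fibre markers were mixed: 2 of 8 rose and 2 fell (median 0.38), with changes from -1.40 for Myh7 to 1.91 for Casq2. The neutrophil markers (1 of 7 rose) differed between the 3 d pools, with mean levels of 2.05 and 4.84, against 1.72 to 1.94 without overload. No marker in the other lists named here was below the median gene in every pool, and the part of these shifts in the result was not tested. The count of 49 depended on single arrays: it was 22 and 19 without pool 1 and pool 2 of the 3 d overload group, and 27 and 17 without pool 1 and pool 2 of the group without overload. With only these 4 arrays in the fit it was 27. In each of these fits the median over the members stayed between -0.66 and -0.55. Leaving out each of the 10 arrays in turn kept 15 of the 49 calls every time: Ndufa8, Ndufa9, Ndufa13, Ndufb8, Ndufs1, Ndufs8, Ndufv1, Sdha, Sdhb, Sdhd, Uqcrfs1, Cox5a, Cox5b, Cox7a1 and Cox7b.

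**Figure D1:**
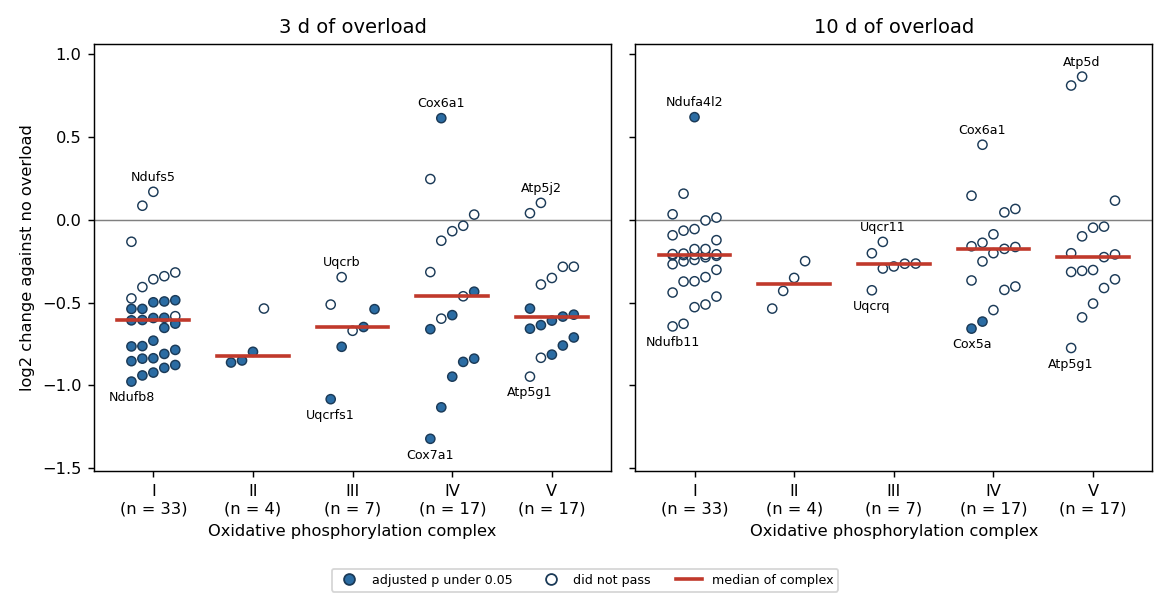
Log2 change of each of the 78 subunit genes (points) against no overload after 3 d (left) and 10 d (right), grouped by complex on the x axis. Filled points passed an adjusted p of 0.05 and red lines are the complex medians, which lie between -0.82 and -0.46 at 3 d and between -0.39 and -0.18 at 10 d. Of the points above 0, only Cox6a1 at 3 d and Ndufa4l2 at 10 d are filled.

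In complex I, 24 of 33 genes fell at 3 d and none rose, with a median change of -0.61. The changes ran from -0.98 for Ndufb8 to 0.17 for Ndufs5. Ndufb8, an accessory subunit of the membrane arm, read 6.86 and 6.83 without overload and 5.65 and 6.09 at 3 d. The groups did not overlap, and Ndufb8 fell by 0.98 ± 0.18 (SE, limma, adjusted p = 0.00655). Ndufs1, the large iron-sulfur subunit of the arm that takes electrons from NADH, read 9.12 and 9.22 without overload and 8.18 and 8.27 at 3 d. It fell by 0.94 ± 0.15 (adjusted p = 0.00398), again without overlap. Ndufs8, another iron-sulfur subunit, went from 9.39 and 9.33 to 8.42 and 8.55, a fall of 0.88 ± 0.13 (adjusted p = 0.00239). The other core subunits of the matrix arm that were called had similar sizes, with changes of -0.76 for Ndufv1, which holds the NADH site, -0.79 for Ndufv2, -0.76 for Ndufs3 and -0.61 for Ndufs7. Ndufb11 and Ndufa11, both of the membrane arm, fell by 0.92 ± 0.25 (adjusted p = 0.0330) and 0.89 ± 0.23 (adjusted p = 0.0283), with wider spreads: Ndufb11 read 6.12 and 6.59 without overload and 5.72 and 5.14 at 3 d. Its call was lost in 6 of the 10 fits that left out an array, and that of Ndufa11 in 2, those without pool 2 of either group compared. Ndufa4, which carries a complex I name but is known as a subunit of complex IV, fell from 10.26 and 10.31 to 9.90 and 9.69 (-0.49, adjusted p = 0.0398). Its paralogue Ndufa4l2, known as a gene induced in low oxygen, read 5.35 and 5.47 without overload and 5.52 and 5.47 at 3 d and did not pass.

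Complex II, the succinate dehydrogenase that is also an enzyme of the TCA cycle, had the lowest median of the complexes, -0.82, with all 4 genes non-overlapping and lower and 3 of them called. Sdha, the flavoprotein that oxidises succinate, read 10.43 and 10.42 without overload and 9.57 and 9.59 at 3 d. Sdhb, the iron-sulfur subunit, read 8.92 and 9.04, then 8.11 and 8.12. Sdhd, a membrane anchor, read 9.18 and 9.22, then 8.38 and 8.42. In these 3 genes the pools of a group lay much closer to each other than the groups did, with falls of 0.85 ± 0.15 (adjusted p = 0.00480), 0.86 ± 0.15 (adjusted p = 0.00471) and 0.80 ± 0.15 (adjusted p = 0.00715). Sdhc, the other membrane anchor, had a change of -0.54 and missed the threshold (adjusted p = 0.0565). A difference between complexes was not tested.

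In complex III, 4 of 7 genes fell at 3 d (median -0.65), and all 7 were lower without overlap. Uqcrfs1, the Rieske iron-sulfur protein that passes electrons to cytochrome c1, read 6.38 and 6.39 without overload and 5.43 and 5.17 at 3 d. Its pools without overload were nearly equal, and it fell by 1.08 ± 0.18, or 2.12-fold (adjusted p = 0.00376). The core proteins Uqcrc1 and Uqcrc2 fell by 0.77 ± 0.15 (adjusted p = 0.00848) and by 0.65 (adjusted p = 0.0107). Uqcrh, the hinge protein, fell by 0.54 (adjusted p = 0.0384).

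Complex IV was the most mixed: 8 of 17 genes fell, 1 rose, and 11 were lower without overlap, with changes from -1.32 to 0.61 around a median of -0.46. Cox5b, a subunit of the matrix side, read 8.32 and 8.71 without overload and 7.36 and 7.40 at 3 d. It fell by 1.13 ± 0.15, or 2.19-fold (adjusted p = 0.00167), although its pools without overload were 0.39 apart. A second and dim probe set of Cox5b changed by -0.45. With the mean of both probe sets the fall was 0.79 (adjusted p = 0.0385). Cox5a, which lies beside Cox5b in the enzyme, read 8.98 and 8.93, then 8.0 in both pools. It fell by 0.95 ± 0.15 (adjusted p = 0.00356), with both groups tight. Cox7b fell by 0.86 ± 0.15 (adjusted p = 0.00554), and Cox4i1, the common form of subunit 4, by 0.66 (adjusted p = 0.0128). Cox6b1 and Cox7a2l had smaller falls of 0.58 (adjusted p = 0.0468) and 0.43 (adjusted p = 0.0496). Cox4i2, Cox6b2, Cox7b2 and Cox8c, isoforms known from lung or testis, were dim, with no reading above 3.52 in any pool, and none passed at 3 d. Cox7c, at 3.88 to 4.64 over all pools, did not pass either. No member of any complex with a mean level below 5 was called at 3 d. The part of dim probe sets in the median of complex IV was not tested.

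In complex V, 9 of 17 genes fell at 3 d and none rose (median -0.58). Atp5l, subunit g of the membrane part, read 9.56 and 9.54 without overload and 8.80 and 8.67 at 3 d. It fell by 0.81 ± 0.18 (adjusted p = 0.0161) with no overlap. Atp5a1, the alpha subunit of the catalytic head, fell by 0.61 (adjusted p = 0.0160), Atp5j, coupling factor 6, by 0.66 (adjusted p = 0.00767), and Atp5e, the epsilon subunit, by 0.71 (adjusted p = 0.0320). The Atp5e call was lost with the mean of its probe sets (-0.47, adjusted p = 0.127) and with only the arrays compared (adjusted p = 0.0668). The catalytic beta subunit Atp5b had a change of -0.39 that did not pass (adjusted p = 0.0688), nor did the gamma subunit Atp5c1 at -0.83 (adjusted p = 0.0669). The proton-carrying c subunit is made from 3 genes that encode the same mature protein. Atp5g3 read 8.37 and 8.49 without overload and 7.61 and 7.73 at 3 d, and fell by 0.76 ± 0.16 (adjusted p = 0.0124). Atp5g2 read 10.39 and 10.36, then 10.08 and 9.96, and did not pass. Atp5g1 read 4.24 and 4.62, then 3.30 and 3.66, a change of -0.95 ± 0.36 that did not pass either (adjusted p = 0.120). The groups were non-overlapping in each of the 3 genes. Atp5g2 passed with a common median (adjusted p = 0.0184), with dim genes left out (0.0232) and with an intensity trend and robust prior (0.00152), and Atp5g1 with only the arrays compared (0.0481), so the calls do not set the 3 genes apart. A difference of Atp5g2 less Atp5g3, set against its mean without overload, was 0.53 and 0.29 at 3 d and between -0.07 and 0.07 without overload. In an exact permutation test (two-sided) of 2 pools against 2 the smallest possible p is 0.333, which is the value here.

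The isoform pairs of complex IV held both the largest fall among the members and the only rise at 3 d. Cox7a1, the heart and skeletal muscle form of subunit 7a, read 9.48 and 9.63 without overload and 8.35 and 8.12 at 3 d, a fall of 1.32 ± 0.17 or 2.50-fold (limma, adjusted p = 0.00144). Cox7a2, the form found in most tissues, read 7.48 and 7.65, then 7.13 and 6.81, a change of -0.60 ± 0.18 that missed the threshold (adjusted p = 0.0588). Cox8b, the muscle form of subunit 8, read 9.50 and 9.79, then 8.79 and 8.82, and fell by 0.84 ± 0.17 (adjusted p = 0.0109). Cox8a, its common counterpart, read 7.40 and 7.38, then 7.74 and 7.53, higher without overlap by 0.25 ± 0.16 but not past the threshold (adjusted p = 0.355). Cox6a1, the common form of subunit 6a, was that rise. It read 9.39 and 9.50 without overload and 10.08 and 10.03 at 3 d, a rise of 0.61 ± 0.14 or 1.53-fold (adjusted p = 0.0144). The muscle form Cox6a2 read 10.45 and 10.60, then 10.12 and 10.30, a change of -0.32 ± 0.14 (adjusted p = 0.168). With each array shifted to a common median the rise of Cox6a1 was 0.42 and missed the threshold (adjusted p = 0.0539). The call was also lost without either 3 d overload pool or without pool 1 of no overload (adjusted p up to 0.0840), or with only the 4 arrays compared (adjusted p = 0.0507). In turn Cox7a2 passed with a common median (-0.79, adjusted p = 0.0217), with dim genes left out (adjusted p = 0.0258) and with an intensity trend and robust prior (adjusted p = 0.0115), and Cox6a2 with a common median (-0.51, adjusted p = 0.0485) and with the trend and robust prior (adjusted p = 0.0149). A call in 1 form and not in the other therefore does not show that the forms differ.

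The muscle form was lower relative to the common form in every 3 d pool of these 3 pairs. The difference of the log2 values, muscle form less common form and set to a mean of 0 without overload, was -0.77 and -0.68 for Cox7a1 less Cox7a2, -1.20 and -0.97 for Cox8b less Cox8a, and -1.04 and -0.82 for Cox6a2 less Cox6a1. Without overload these differences lay between -0.16 and 0.16. No pair overlapped between the groups, and the exact permutation test (two-sided) gave 0.333 in each, the smallest p that 2 pools against 2 allow. In overloaded muscle with inhibitor at 3 d the means were -0.86 for the Cox7a pair, -1.24 for the Cox8 pair and -0.77 for the Cox6a pair. At 10 d without inhibitor they were -0.26, -0.43 and -0.59, and the Cox8 pair then overlapped with no overload. At 10 d with inhibitor the means were -0.59, -0.38 and -0.07, with overlap again in the Cox8 pair. Macrophages and fibroblasts, whose markers rose, are known to carry the common forms, and their part in these differences was not tested.

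**Figure D2:**
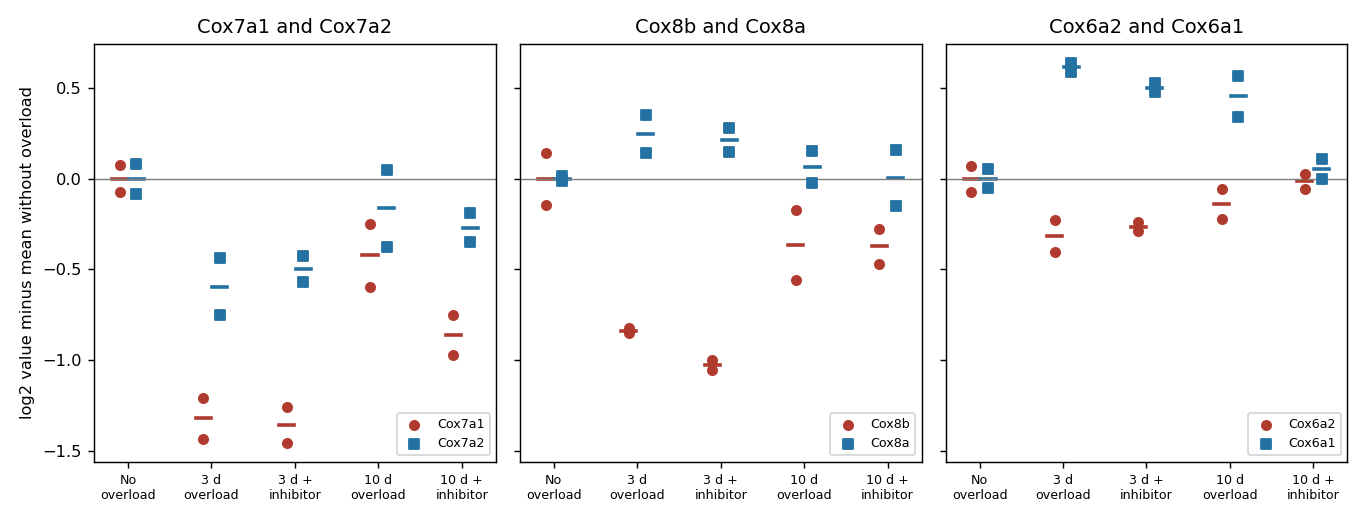
Log2 value in each pool (points) minus the gene's mean without overload, for the muscle form (red circles) and the common form (blue squares) of complex IV subunits 7a, 8 and 6a, with short lines at the mean of 2 pools. Each muscle form lies below its common form in both 3 d groups, and the Cox6a1 squares at 3 d lie 0.48 to 0.64 above the mean without overload.

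The promoters of 5 of these 6 isoforms (Cox6a2 had no entry), and of Sdhd as a complex II gene, are shown because the pairs moved apart and because the factors NRF1, GABP, ERR and YY1 are known to act on genes of oxidative phosphorylation. The 250 bases before the start are given 5′ to 3′ from RefSeq, build GRCm38.p6, with capitals where the letters of a searched motif match.
Cox7a1, chr7:30183921-30184170, plus strand: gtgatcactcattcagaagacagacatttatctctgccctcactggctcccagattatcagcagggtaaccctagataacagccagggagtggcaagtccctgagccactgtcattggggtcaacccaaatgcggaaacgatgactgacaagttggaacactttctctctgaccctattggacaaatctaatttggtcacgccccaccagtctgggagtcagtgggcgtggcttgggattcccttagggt
Cox7a2, chr9:79759854-79760103, minus strand: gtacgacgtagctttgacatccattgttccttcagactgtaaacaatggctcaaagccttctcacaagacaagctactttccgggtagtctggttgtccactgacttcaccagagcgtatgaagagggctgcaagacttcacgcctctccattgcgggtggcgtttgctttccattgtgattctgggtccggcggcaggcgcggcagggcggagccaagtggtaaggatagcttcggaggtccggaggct
Cox8b, chr7:140900447-140900696, minus strand: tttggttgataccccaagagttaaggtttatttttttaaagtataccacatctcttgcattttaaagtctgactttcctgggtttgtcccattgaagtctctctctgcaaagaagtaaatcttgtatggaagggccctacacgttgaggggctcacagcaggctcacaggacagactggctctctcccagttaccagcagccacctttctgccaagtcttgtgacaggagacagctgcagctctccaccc
Cox8a, chr19:7217617-7217866, minus strand: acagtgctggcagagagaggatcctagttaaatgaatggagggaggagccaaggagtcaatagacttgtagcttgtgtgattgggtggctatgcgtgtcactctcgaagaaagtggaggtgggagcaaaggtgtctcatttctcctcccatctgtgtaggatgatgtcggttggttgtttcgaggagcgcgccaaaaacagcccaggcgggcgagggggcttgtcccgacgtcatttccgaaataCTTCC
Cox6a1, chr5:115348959-115349208, minus strand: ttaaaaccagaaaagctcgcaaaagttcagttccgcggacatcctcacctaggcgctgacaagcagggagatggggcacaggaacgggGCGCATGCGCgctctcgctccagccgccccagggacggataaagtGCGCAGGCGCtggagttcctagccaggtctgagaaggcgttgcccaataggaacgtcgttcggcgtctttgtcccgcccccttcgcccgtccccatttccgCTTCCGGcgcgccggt
Sdhd, chr9:50603850-50604099, minus strand: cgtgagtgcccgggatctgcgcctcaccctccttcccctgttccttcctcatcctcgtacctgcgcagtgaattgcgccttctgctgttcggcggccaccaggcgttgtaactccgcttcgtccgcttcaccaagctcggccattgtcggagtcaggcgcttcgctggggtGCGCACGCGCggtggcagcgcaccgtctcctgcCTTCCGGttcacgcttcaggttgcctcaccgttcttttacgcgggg
The Cox7a2 entry does not begin at the annotated start of the gene. Cox6a1 held NRF1 letters starting 162 and 117 bases before the start and GABP letters at 16, and Sdhd held NRF1 letters at 79 and GABP letters at 46 before it, with ERR letters 36 bases after it. Cox8a held GABP letters that begin 5 bases before the start and cross it, and others 32 bases after it. No match was found in the windows of Cox7a1, Cox7a2 and Cox8b, which says only that these letters are not there.

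Of the 78 members 64 had a promoter entry. Windows of 300 bases (250 before and 50 after the start) were searched on both strands for GCGCA and GCGC parted by any 1 base (NRF1), CCGGAAG (GABP), TNAAGGTCA (ERR) and AANATGGCG (YY1). The NRF1 letters were in 15 members (23.4%, against 5.19% of 27025 genes), the GABP letters in 17 (26.6% against 9.93%), the YY1 letters in 9 (14.1% against 2.76%) and the ERR letters in 2 (3.12% against 1.43%). The median change at 3 d was -0.54 in members with the NRF1 letters and -0.61 in those without, -0.58 and -0.61 for GABP, -0.61 and -0.60 for YY1, and -0.78 and -0.60 for ERR, whose letters only Sdhd and Atp5g3 held. These are descriptions, and a match is not a binding site.

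By 10 d of overload the subunit genes were closer to the level without overload. Of the 78 members 2 fell and 1 rose, against 5.13% of all genes called, 3.9% higher and 1.23% lower. The median change was -0.22 (all genes -0.04), and 67 members were below 0, as were 55% of all genes. Both overloaded pools lay below both pools without overload in 50 members, an order that 28.1% of all genes showed, and 20 members had an unadjusted p under 0.05, against 20.3% of all genes. The pools were unequal: the median member was at -0.12 in pool 1 and -0.37 in pool 2, and their fibroblast markers had mean levels of 8.70 and 9.38. Whether these differences are linked was not tested. The median over the members was -0.37 without pool 1 and -0.12 without pool 2. Complex medians ran from -0.39 for complex II to -0.18 for complex IV, with -0.21 for complex I and -0.23 for complex V. The 12 markers of any fibre then had a median change of -0.03 and none passed, as did none of the 10 fast fibre markers (median -0.02). Of the 8 slow fibre markers 4 rose (median 1.06), with a mean level of 6.03 to 6.15 without overload and 6.99 to 7.06 at 10 d. Myl3 of that list went the other way, at -0.72, lower without overlap but not called. At the same time 10 of 12 macrophage, 8 of 9 fibroblast and 6 of 7 dividing-cell markers were higher by the same test. The part of these shifts in the result was not tested.

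Single members at 10 d were few and depended on the arrays used. Ndufa4l2 read 6.01 and 6.05 at 10 d against 5.35 and 5.47 without overload, and rose by 0.62 ± 0.13 (limma, adjusted p = 0.0307). With a common array median it was 0.45 and missed the threshold (adjusted p = 0.0745), and the call was kept in 2 of 10 fits without an array. Cox5a read 8.45 and 8.14 against 8.98 and 8.93, and fell by 0.66 ± 0.15 (adjusted p = 0.0454). Its call was kept in 1 of 10 such fits. Cox7b2, an isoform known from testis, fell by 0.61 ± 0.14 (adjusted p = 0.0481) at readings of 1.09 to 1.90, which are below the median gene at 3.13, and was kept in none. The number called was 0 or 1 in every fit without an array, 8 with a common median, 9 with dim genes left out and 14 with an intensity trend and robust prior.

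The step from 3 to 10 d was upward for most members. Both 10 d pools lay above both 3 d pools in 58 members, against 24.6% of all genes, and the median difference was 0.37 (all genes 0.01). Of the members 7 rose and none fell, while 6.08% of all genes were called, 2.7% higher and 3.38% lower. The difference was below 0 in 7 members and in 49.2% of all genes. Cox7a1 read 8.35 and 8.12 at 3 d and 9.31 and 8.96 at 10 d, a rise of 0.90 ± 0.17 (adjusted p = 0.0224). Uqcrfs1 read 5.43 and 5.17, then 6.32 and 5.92, and rose by 0.82 ± 0.18 (adjusted p = 0.0318). Ndufa13, an accessory subunit of complex I also known as GRIM-19, read 7.54 and 7.52, then 8.32 and 8.17, and rose by 0.72 ± 0.12 (adjusted p = 0.0156). None of these 3 genes overlapped between the times, and at 10 d their changes against no overload were -0.42, -0.26 and -0.09, none of which passed. Sdhb, Ndufs8 and Ndufa8 rose by 0.61 each, with adjusted p = 0.0473 and 0.0307 for the first pair and a value just inside the threshold for Ndufa8, and Ndufa4l2 by 0.54 ± 0.13 (adjusted p = 0.0460). This comparison shares its 3 d arrays with the comparison of 3 d against no overload, so a low 3 d reading raises the former value and lowers the latter. The count was 0 without either 3 d overload pool or without pool 1 of the 10 d overload group, 0 with only the 4 arrays compared, and at most 5 in the fits without an array. It was 24 with dim genes left out and 33 with an intensity trend and robust prior. With a common array median it was 5, and Sdhb (adjusted p = 0.061) and Ndufa8 (adjusted p = 0.068) no longer passed.

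By group means, 56 of the 78 members stood in one order, with both 3 d groups lowest, both 10 d groups between and no overload highest. The group without overload was highest in 62 members. The lowest mean was that of 3 d overload in 35 members and of 3 d overload with inhibitor in 36. The order of the 2 groups within a time was not tested member by member beyond the inhibitor comparisons.

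**Figure D3:**
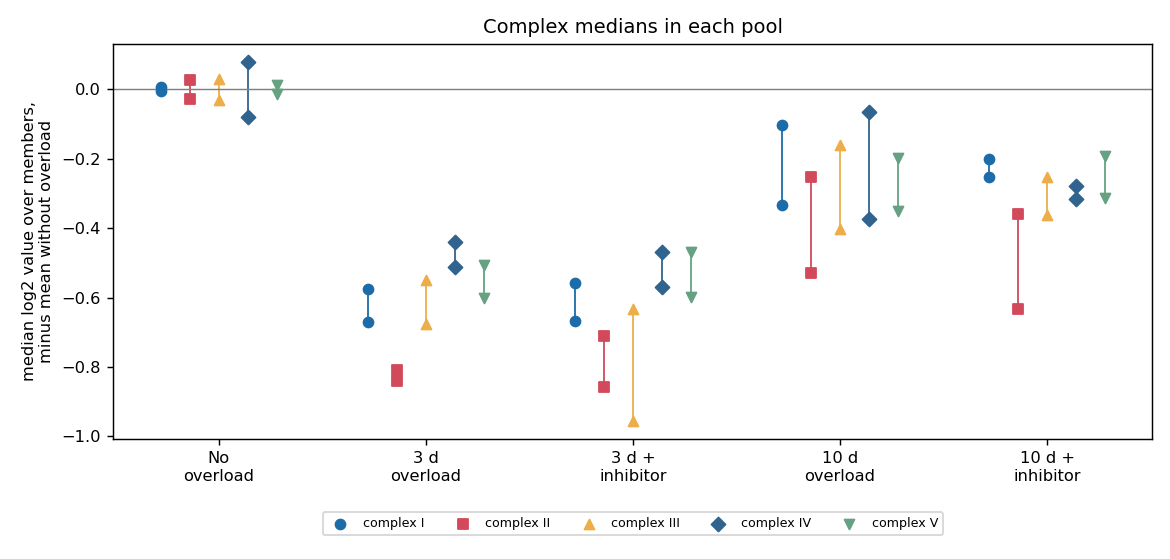
Median over the members of each complex of the log2 value minus the mean without overload (y axis), for the 2 pools (points joined by a line) of each group (x axis). Every 3 d pool lies below -0.4 in every complex, and within each complex the 10 d pools lie above the 3 d pools and below 0.

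The question put by the study's title is what PDGF inhibition does in overloaded muscle. At 3 d the median difference of the subunit genes between muscle with and without inhibitor was -0.01 (all genes 0.03), and 41 of 78 members were below 0, against 45.6% of all genes. The median was 0.06 with a common array median, 0.03 without pool 1 of 3 d overload and 0.07 without pool 1 of the inhibited group. No member was called by limma, against 0% of all genes, and 3 had an unadjusted p under 0.05, against 9.07% of all genes. Pools did not overlap in 7 members that were higher and 11 that were lower, where 22.3% and 17.7% of all genes showed those orders. The 3 members with an unadjusted p under 0.05 were Ndufs5, Uqcr11 and Cox7b2. Uqcr11, a small complex III subunit, read 6.02 and 5.81 at 3 d without inhibitor and 5.26 and 5.67 with it, a difference of -0.45 ± 0.17 (adjusted p = 0.486). The other 2 are dim. Complex medians were 0.00, 0.03, -0.08, -0.01 and -0.03 for complexes I to V. Cell markers differed in the same pools. All 7 markers of dividing cells were lower without overlap (median -1.22), as were 8 of 9 fibroblast (median -0.49) and 9 of 12 macrophage markers (median -0.51). The other way went 1 fibroblast marker and 1 macrophage marker, Cd68, the latter without overlap. None of these markers was called, and the part of these shifts in the result was not tested. The median SE of a member with a mean level of 5 or more was 0.15. Differences well above that could also go uncalled, as the -0.45 of Uqcr11 did. The absence of a call therefore does not show that the groups are alike.

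Against no overload, inhibited muscle at 3 d had lower subunit genes in every complex, as overload alone did: 47 members fell and 1 rose, with a median of -0.60 and 74 members below 0, where 50.5% of all genes were below 0 and 14.2% of all genes were called, 7.71% higher and 6.51% lower. Both comparisons use the same arrays without overload. By complex the numbers that fell were 22 of 33, 4 of 4, 6 of 7, 7 of 17 and 8 of 17, beside 24, 3, 4, 8 and 9 without inhibitor. Cox7a1 read 8.10 and 8.30 and was 1.36 below no overload (adjusted p = 0.00191), and Cox8b read 8.65 and 8.59 and was 1.03 below (adjusted p = 0.00591). Cox6a1 read 9.97 and 9.92 and was again the only member that rose, by 0.50 (adjusted p = 0.0406). This call was kept in 2 of 10 fits without an array, those without a pool of 10 d overload, and was lost with a common median and with only the arrays compared. The count of 48 was 9 and 26 without pool 1 and pool 2 of the inhibited group, 19 and 14 without pool 1 and pool 2 of no overload, and 21 with only the 4 arrays compared.

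At 10 d the median difference between muscle with and without inhibitor was -0.05 (all genes 0.01), with 53 of 78 members below 0, against 48.4% of all genes. The sign of the median was not stable: it was 0.07 without pool 1 of the 10 d overload group, 0.0044 without pool 1 of the inhibited group and 0.03 with a common array median. No member was called by limma, against 0.104% of all genes (0.0225% higher and 0.0812% lower), and 5 had an unadjusted p under 0.05, against 10.6% of all genes. Pools did not overlap in 9 members that were higher and 12 that were lower, orders that 21.6% and 19.5% of all genes showed. The largest differences were 1.01 for Ndufs5 and -0.69 for Atp5j2, whose mean levels lay below that of the median gene. Cox7a1 read 9.31 and 8.96 at 10 d without inhibitor and 8.58 and 8.80 with it, without overlap, a difference of -0.44 ± 0.17 (adjusted p = 0.408). Cox6a1 read 9.79 and 10.01 without and 9.44 and 9.55 with inhibitor, the latter near the 9.39 and 9.50 read without overload. Its difference was -0.40 ± 0.14 (adjusted p = 0.324). Ndufa4l2 read 6.01 and 6.05 without and 5.68 and 5.58 with inhibitor, a difference of -0.40 ± 0.13 (adjusted p = 0.302). These 3 genes had non-overlapping pools and none passed. Mean levels of the macrophage markers were 6.04 to 6.59 without and 5.75 to 5.84 with inhibitor, and those of the fibroblast markers 8.70 to 9.38 and 8.18 to 8.21. The 7 markers of dividing cells were all lower without overlap, with a median difference of -1.34 and 1 called, and those of slow fibres had a median difference of -0.51 (none of 8 called). The neutrophil markers went the other way, with mean levels of 1.59 to 1.81 without and 3.83 to 4.17 with inhibitor (1 of 7 called, Ly6g below the median gene in every pool), as did the 2 red cell markers measured, at 1.60 to 2.37 and 3.69 to 4.23 (none called). The part of these shifts in the differences was not tested.

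Against no overload, 10 d muscle with inhibitor had no member called by limma, while 1.56% of all genes were, and 24 members had an unadjusted p under 0.05 (15.1% of all genes). The median was -0.28, with 65 members and 53.2% of all genes below 0, and both pools lay below no overload in 58 members, against 25.1% of all genes. Cox7a1 came nearest to a call, at -0.86 ± 0.17 (adjusted p = 0.0518), beside -0.42 without inhibitor (adjusted p = 0.216). Sdha stood at -0.62 (adjusted p = 0.0802), beside -0.54 without inhibitor (adjusted p = 0.0737). The count was 7 with dim genes left out and 17 with an intensity trend and robust prior.

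The inhibitor's effect at 10 d less its effect at 3 d was called by limma in no member and in 0% of all genes, with an unadjusted p under 0.05 in 1 member and 6.47% of all genes. That member was Ndufs5, a subunit of complex I on the side facing the intermembrane space. It read 2.94 and 3.55 at 3 d and 2.47 and 2.52 with inhibitor, then 2.65 and 2.57 at 10 d and 3.90 and 3.35 with inhibitor. The difference of the effects was 1.76 ± 0.43 (unadjusted p = 0.00315, adjusted p = 0.592). The probe set was dim and its pools without overload read 3.49 and 2.65, so its spread there was 0.84.

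**Figure D4:**
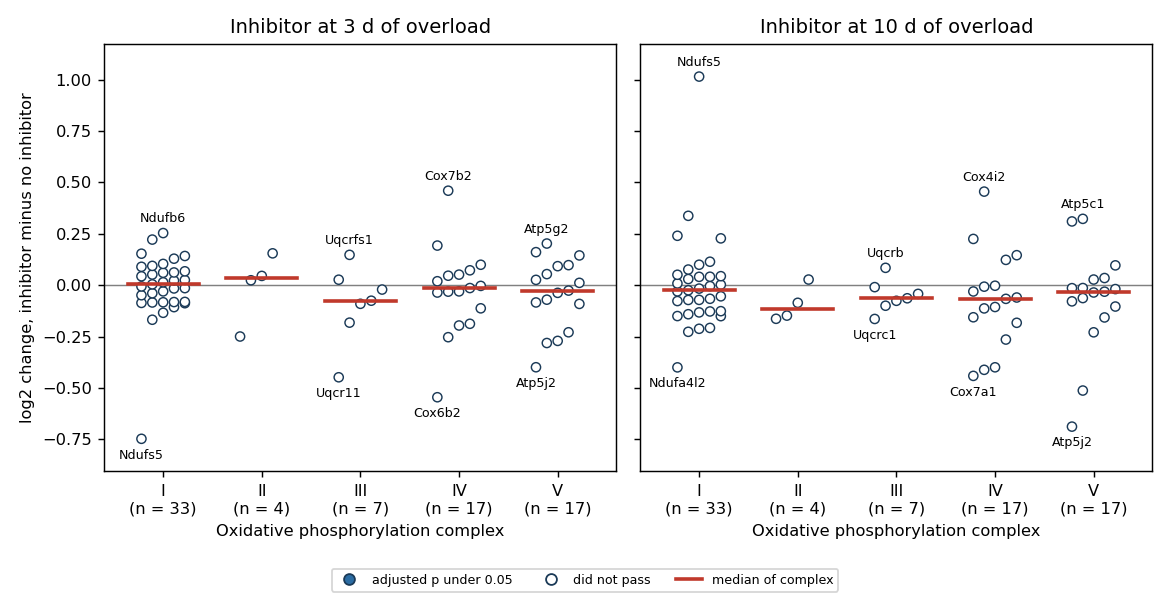
Log2 difference between overloaded muscle with and without inhibitor for each subunit gene (points) at 3 d (left) and 10 d (right), by complex, with red lines at the complex medians. The medians lie between -0.12 and 0.03, and no point is filled because none passed an adjusted p of 0.05.

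Other mitochondrial genes put the subunits in context at 3 d. The TCA cycle, which feeds electrons to complexes I and II, had 16 of 17 measured genes fall (median -0.80), among them Idh2, the mitochondrial NADP-dependent isocitrate dehydrogenase, at -1.48 ± 0.15 (limma, adjusted p = 0.000545), and Cs, citrate synthase, at -0.76 ± 0.14 (adjusted p = 0.00572). In the ubiquinone synthesis list 5 of 12 genes fell (median -0.50), with Coq10a at -1.12 and Coq8a at -1.07. Assembly factors, which build the complexes without remaining in them, fell in 7 of 18 for complex I, 2 of 10 for complexes II and III, 8 of 24 for complex IV and 3 of 5 for complex V, and none rose. The medians were -0.53, -0.32, -0.40 and -0.69. Dmac2, a complex I membrane arm factor, changed by -1.58 ± 0.19 (adjusted p = 0.000941) and Ndufaf1 by -1.26 ± 0.14 (adjusted p = 0.000783). For complex V, Fmc1 and Atpaf1 changed by -1.15 ± 0.18 (adjusted p = 0.00339) and -1.10 ± 0.18 (adjusted p = 0.00400). Each of these named factors was lower without overlap. Mitochondrial ribosomal proteins, which make the subunits encoded in the organelle, had 7 of 71 genes fall, or 9.86%, beside 8.18% of all genes, with a median of -0.30.

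The subunits encoded by the mitochondrial genome had small changes. All 10 that were measured had changes between -0.15 (ND3) and -0.01 (ND6), with a median of -0.06, and limma called none, nor had any an unadjusted p under 0.05. ND1, a core subunit of complex I, read 12.15 and 12.16 without overload and 12.13 and 12.09 at 3 d. COX1, the catalytic subunit of complex IV, read 12.32 and 12.31 without overload and 12.28 and 12.27 at 3 d. The list's mean level was 11.79 to 11.83 without overload and 11.74 to 11.75 at 3 d. In 7 of the 10 both 3 d pools lay below both pools without overload, against 30.7% of all genes. Apart from ND6 these probe sets are near the top of the array's range, which ended at 12.71, and whether signals there can still rise or fall in proportion was not tested. At 10 d their median change was -0.17, again with none called or at an unadjusted p under 0.05. All 10 were below 0 and 9 were lower without overlap, against 28.1% of all genes. From 3 to 10 d the nuclear members went mostly upward, but all 10 of these went down, with a median of -0.10. In 9 of them the pools of the 2 times did not overlap, an order that 24.2% of all genes showed, and none was called.

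Electron carriers and transporters outside the symbol rule included a further isoform pair. Slc25a4, the muscle form of the ADP/ATP carrier, read 11.26 and 11.09 without overload and 10.31 and 10.37 at 3 d, and fell by 0.84 ± 0.14 (adjusted p = 0.00413). Slc25a5, the form of proliferating cells, read 7.68 and 7.73, then 8.65 and 8.40, and rose by 0.82 ± 0.16 (adjusted p = 0.00980). These carriers moved in opposite directions without overlap. Of the 17 genes of this list 8 fell and 1 rose, where 8.18% of all genes were called lower and 9.31% higher. Etfdh, which passes electrons from fatty acid oxidation to ubiquinone, changed by -1.09 ± 0.16 (adjusted p = 0.00238). Cyc1, cytochrome c1 of complex III, changed by -0.97 ± 0.17 (adjusted p = 0.00493). Cycs, cytochrome c, had a change of -0.51 that did not pass (adjusted p = 0.0513).

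Of 20 regulators of mitochondrial genes 5 fell and 1 rose at 3 d, where 8.18% of all genes were called lower and 9.31% higher. Without overlap 14 of the 20 were lower and 6 higher, orders that 30.7% and 25.1% of all genes showed. Perm1, a muscle regulator acting with the PGC-1 and ERR factors, read 8.60 and 8.85 without overload and 6.49 and 7.04 at 3 d. It fell by 1.96 ± 0.25, or 3.89-fold (adjusted p = 0.00118). Esrra, which encodes ERR alpha, fell by 1.16 ± 0.22 (adjusted p = 0.00772), and Ppara, a receptor that drives fatty acid oxidation genes, by 1.93 ± 0.45 (adjusted p = 0.0193). Ppard and Tfeb fell by 0.53 and 0.63. Ppargc1a, the coactivator PGC-1 alpha, read 8.65 and 8.88 without overload and 7.57 and 8.27 at 3 d, lower without overlap but with a change of -0.85 ± 0.29 that missed the threshold (adjusted p = 0.0845). Hif1a, the oxygen-regulated factor, rose by 0.91 ± 0.21 (adjusted p = 0.0193). Nrf1 (0.11), Gabpa (-0.16), Yy1 (-0.08) and Tfam (-0.09), which encodes the mitochondrial DNA factor TFAM, did not pass.

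**Figure D5:**
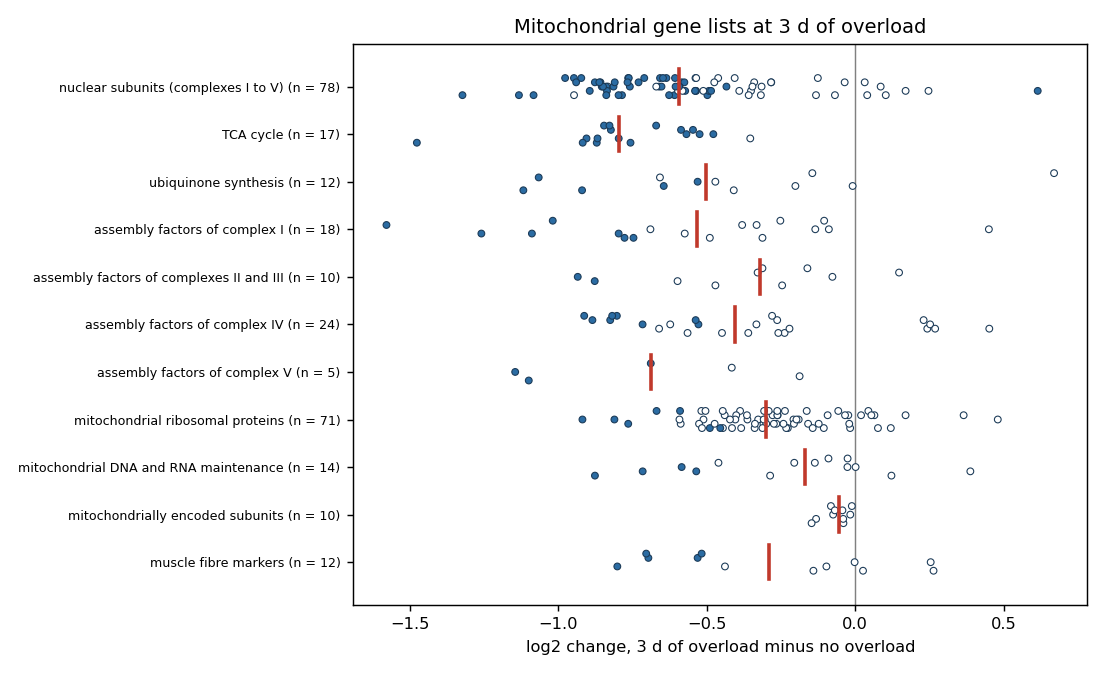
Log2 change at 3 d of overload for each gene (points, filled where the adjusted p was under 0.05) of the nuclear subunits, 9 further mitochondrial lists and the muscle fibre markers, with red lines at the list medians. The medians are -0.59 for the nuclear subunits, -0.80 for the TCA cycle, -0.06 for the mitochondrially encoded subunits and -0.29 for the fibre markers.

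For 3 d overload against no overload the calls lay among the brighter members. None of the 10 members with a mean level below 5 was called at 3 d, and they had a median change of -0.05, a median SE of 0.29 and pools up to 1.65 apart. Of these 10, Cox7b2 was called at 10 d and Uqcrq in inhibited muscle at 3 d (-0.85, adjusted p = 0.0345). Of the 68 members at 5 or more, 48 fell and 1 rose, with a median of -0.61 and a median SE of 0.15. In all, 21 members were called in none of the 8 comparisons, among them the bright Ndufb9, Ndufa3, Uqcrb, Atp5b, Atp5g2, Cox6a2 and Cox8a. Second probe sets did not always match in size. Ndufa8 changed by -0.84 on its brightest probe set and by -0.15 on another. Cox5b changed by -1.13 and -0.45, Atp5e by -0.71 and -0.23, and Atp5d by -0.28 and -0.83. Both probe sets of these genes were below 0 at 3 d, but not always elsewhere. At 10 d against no overload Ndufa8 was at -0.23 on the brightest and 0.64 on the other, and Atp5d at 0.87 and -0.14. For 10 d against 3 d Atp5e was at 0.40 and -0.33.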

How the data were processed

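The arrays measured total RNA of mouse plantaris on Mouse Gene 2.1 ST strips. The labels name a different labelling kit in the sample descriptions than in the protocol. The authors deposited 1 table of log2 values for 41345 probe sets. The submitters' processing notes name oligo, RMA and limma without versions. Background correction and normalization between arrays belong to RMA, and an overall change in RNA per muscle would not show on this scale. Of the probe sets 23521 had 1 gene symbol in the platform annotation, 1814 had several and 16010 were not listed. The brightest probe set stood for a gene with several (1082 of 22180 genes). Subunit genes whose only probe set names several genes, such as Uqcr10, Ndufs6 and Cox6c, were not used.

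limma 3.58.1 in R 4.3.3 (lmFit, eBayes) was fitted to all 10 arrays with 1 coefficient per group, no covariate and 5 residual degrees of freedom, and p-values were adjusted over 22180 genes. There were 8 comparisons. The fit was tested on simulated data. Sample groups came from the titles. Alternatives were a common array median, leaving out dim genes, the mean of a gene's probe sets, only the arrays compared, an intensity trend with robust prior, and leaving out each array. The members and lists were chosen with earlier results of these data known. Named were the isoform pairs and, per comparison and complex, up to 4 called genes with the largest changes, and where a complex had none, the gene with the largest change; the core subunits, the genes of other lists and those used to illustrate brightness or probe sets were chosen after their values were seen. Promoters came from RefSeq (GRCm38.p6), and 14 members had no entry.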

Additional observations from a re-analysis of the deposited data

How the results depend on the processing

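With 2 arrays a group the number of calls moved more than the sizes did. No called gene changed its sign. For 3 d against no overload, 49 members were called, 46 with the mean of a gene's probe sets and 27 with only the arrays compared. The count was 65 with a common median, 60 of 72 with dim genes left out and 62 with an intensity trend and robust prior. It was below 49 in every fit without an array. For 10 d against no overload, 3 were called, 8 with a common median, 9 with dim genes left out, 0 with only the arrays compared and 14 with an intensity trend and robust prior (0 to 1 without an array). For 10 d against 3 d, 7 were called, 24 with dim genes left out, 0 with only the arrays compared and 33 with the trend and robust prior (0 to 5). For inhibited muscle at 3 d against no overload, 48 were called and 21 with only the arrays compared (9 to 48). For inhibited muscle at 10 d against no overload, 0 were called, 1 with a common median, 7 with dim genes left out and 17 with the trend and robust prior (0 to 1). Both inhibitor comparisons and their difference gave 0 in every setting. Shifting the arrays to a common median lowered all changes by 0.19 at 3 d, 0.17 at 10 d and 0.12 for inhibited muscle at 3 d, to member medians of -0.79, -0.39 and -0.73. Medians without an array ran from -0.66 to -0.55 at 3 d, -0.37 to -0.12 at 10 d, 0.26 to 0.47 for 10 d against 3 d, -0.08 to 0.07 and -0.16 to 0.07 for the inhibitor at 3 d and 10 d, and -0.67 to -0.55 and -0.33 to -0.21 for inhibited muscle at 3 d and 10 d against no overload. Where an array was left out, the lone pool was assumed to vary like the other groups. Causes of these shifts were not tested. No paired analysis was possible because the labels give no replicate numbers.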
